A study of Mus musculus with 8 samples.

Results

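The genes of the T cell receptor complex were followed in livers of mice with and without Smo in hepatocytes, together with Themis, a signaling gene of the T cell lineage. The 10 genes were taken by symbol: Cd3e, Cd3d, Cd3g and Cd247, which encode the signaling chains of the receptor; Cd4, Cd8a and Cd8b1, which encode its coreceptors; Lck and Zap70, its kinases; and Themis. All 10 were among the 25239 symbols counted in each liver. They were chosen by their difference in read counts between Smo-KO and control livers, which was already known, so the values that compare control and Smo-KO livers for these genes are given as a description, without a test. Bulk RNA-Seq was done on whole liver from 4 control and 4 Smo-KO mice. All 8 were adult males homozygous for a floxed Smo allele on a C57Bl6/J background, were fed the CDA-HFD (a choline-deficient diet, restricted in amino acids and high in fat, that induces steatohepatitis) for 6 weeks, and received a vector in the tail vein 1 week before sacrifice. Control mice received AAV8-TBG-Luciferase and Smo-KO mice AAV8-TBG-Cre Recombinase. The sample labels call the control genotype WT, but those mice carry the floxed alleles as well. The TBG promoter is active in hepatocytes, so the vector is not directed at T cells, and neither group was free of vector or of the diet.

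The T cell receptor is a pair of variable chains that recognizes peptide on MHC molecules and has almost no cytoplasmic part of its own. The Cd3 chains and the zeta chain, the product of Cd247, carry the signal into the cell: Lck, held at the tails of CD4 or CD8, phosphorylates their tyrosine motifs, and Zap70 docks there and passes the signal on. Themis binds the adaptor Grb2 and the phosphatase Shp1 and sets signal strength in thymocytes during positive selection. In steatohepatitis, T cells, many of them CD8+, are found among the lymphocytes that gather in the liver. The gene counts come from whole tissue, and fewer T cells and less RNA of a gene per T cell cannot be told apart in them.

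Cd3g and Cd3d lie head to head on chromosome 9, with 1355 bases between their annotated start sites, and Cd3e follows 11.4 kb beyond Cd3d. Cd8a and Cd8b1 are also neighbors, 35.9 kb apart on chromosome 6. Themis stands alone on chromosome 10 (28668360 to 28883818, plus strand; GENCODE M21, GRCm38). RefSeq sequence of the 250 bases before the start site (GRCm38.p6) was found for 8 of the 10 genes. The stretches of the head-to-head pair, of Lck and of Themis are shown because the first 3 genes were lower and Themis was higher on average in Smo-KO livers. Capitals mark matches, on either strand, to TGTGGT (RUNX), GGAAGT (ETS), CTTTGA (TCF), CAAAGTCCA (HNF4) or the HNF1 palindrome, which occur in 14%, 19.7%, 13.8%, 0.384% and 0.00913% of the 32851 mouse promoters of this length.
Cd3g (chr9:44980432-44980681, minus strand): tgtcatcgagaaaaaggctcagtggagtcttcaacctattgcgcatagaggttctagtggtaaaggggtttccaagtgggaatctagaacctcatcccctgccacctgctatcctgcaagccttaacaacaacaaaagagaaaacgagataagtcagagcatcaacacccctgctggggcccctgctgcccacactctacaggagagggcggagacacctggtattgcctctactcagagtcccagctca
Cd3d (chr9:44981536-44981785, plus strand): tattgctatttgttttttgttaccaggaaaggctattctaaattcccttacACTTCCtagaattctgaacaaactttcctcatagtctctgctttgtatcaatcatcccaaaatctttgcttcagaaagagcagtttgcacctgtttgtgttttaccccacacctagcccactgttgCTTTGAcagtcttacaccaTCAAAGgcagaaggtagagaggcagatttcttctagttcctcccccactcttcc
Lck (chr4:129573642-129573891, minus strand): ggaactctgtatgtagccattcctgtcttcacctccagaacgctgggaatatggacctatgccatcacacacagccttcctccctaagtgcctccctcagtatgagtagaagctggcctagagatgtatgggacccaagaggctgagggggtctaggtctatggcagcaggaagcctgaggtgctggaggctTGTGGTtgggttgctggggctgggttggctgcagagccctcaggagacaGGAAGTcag
Themis (chr10:28668110-28668359, plus strand): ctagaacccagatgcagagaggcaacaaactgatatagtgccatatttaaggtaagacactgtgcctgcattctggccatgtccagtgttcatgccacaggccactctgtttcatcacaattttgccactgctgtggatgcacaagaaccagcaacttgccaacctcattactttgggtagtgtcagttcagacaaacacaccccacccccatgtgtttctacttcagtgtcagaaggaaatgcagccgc
In these windows Cd3d held 1 ETS and 2 TCF matches, and Lck held 1 RUNX and 1 ETS match. Neither Cd3g nor Themis held any of the letters searched, and none of the 8 windows searched held the HNF4 or HNF1 letters (Cd4 and Cd8b1 were not searched). The matches are letters only and were not read as binding sites.

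Smo, the deleted gene, was measured first as a check of the labels. Its level was 8.17, 8.49, 8.74 and 8.21 CPM (a gene's counts scaled to the size of its library) in the control mice, numbered 1 to 4, and 5.67, 3.93, 4.27 and 4.37 CPM in the Smo-KO mice, in the same order. Every Smo-KO liver was below every control liver, with Smo-KO mouse 1 nearest to the controls. The log2 fold change was -0.88 (standard error 0.16, adjusted p = 0.0957, edgeR's quasi-likelihood test over 12977 genes). Hepatocyte genes dominated all libraries: Alb alone averaged 7075 ± 415 CPM per kilobase of exon in control livers (SD, n = 4), while Cd3e averaged 2.01 ± 0.491 on the same scale. Libraries held 8203299 to 9999732 reads on genes. At this depth 3 reads correspond to 0.297 to 0.366 CPM, and the T cell genes are low: the 9 without Themis sum to 37.2 to 80.7 CPM per liver.

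The 9 T cell genes other than Themis all had lower means in Smo-KO than in control livers. Their log2 fold changes ran from -1.32 (Cd247) to -0.32 (Zap70), with a median of -0.85, where the median of all 12977 genes tested was -0.00084. In 5 of the 9, all Smo-KO values lay below all control values, which was so in 4.34% of all genes tested. In Themis all Smo-KO values lay above all control values, which was so in 3.03% of genes. Since this contrast chose the members, nothing is read from either count. The summed level of the 9 genes was 70.4, 63.0, 67.1 and 80.7 CPM in control mice and 41.7, 37.2, 46.8 and 53.1 CPM in Smo-KO mice, or 63.6% of the control mean. The highest Smo-KO sum, in mouse 4, was below the lowest control sum, in mouse 2.

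**Figure D1:**
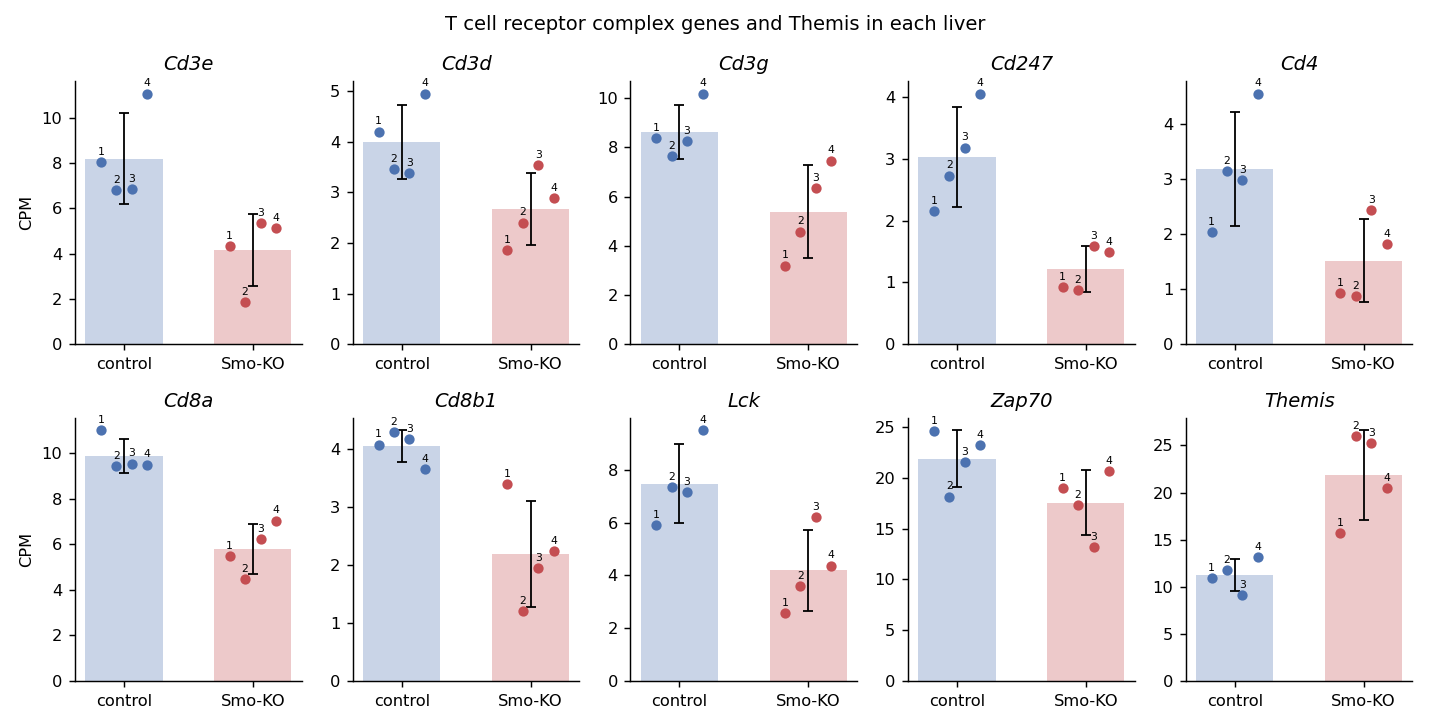
Level of each gene in CPM (vertical axis, from 0) in 4 control and 4 Smo-KO livers. Points are livers with their mouse number, bars are group means and error bars are SD; the 9 T cell genes have lower Smo-KO means, and Themis has Smo-KO values of 15.7 to 26.0 CPM against 9.14 to 13.2 CPM in control livers.

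Among the signaling chains, Cd3e, whose product pairs with those of Cd3d and Cd3g, was 8.05, 6.82, 6.86 and 11.1 CPM in control mice and 4.33, 1.85, 5.37 and 5.12 CPM in Smo-KO mice. Control mouse 4 was the highest and Smo-KO mouse 2 the lowest, and the groups did not overlap. The log2 fold change was -0.98 (standard error 0.27). Cd3g, which shares its upstream region with Cd3d, was 8.39, 7.65, 8.25 and 10.2 CPM in control and 3.20, 4.58, 6.34 and 7.46 CPM in Smo-KO mice, again without overlap (log2 fold change -0.68, standard error 0.23). The gap was small, with Smo-KO mouse 4 just below control mouse 2. Cd3d was 4.20, 3.46, 3.38 and 4.95 CPM in control and 1.86, 2.40, 3.54 and 2.88 CPM in Smo-KO mice (log2 fold change -0.59, standard error 0.23). Smo-KO mouse 3 lay within the control range, so the groups overlapped.

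Cd247, the zeta chain, was 2.15, 2.73, 3.18 and 4.05 CPM in control and 0.928, 0.873, 1.58 and 1.49 CPM in Smo-KO mice, without overlap. It had the most negative fold change of the 10 genes (log2 -1.32, standard error 0.29), from only 8 to 41 reads per liver. In GENCODE M21, 56.4% of its exon bases are also exon of Pou2f1 on the opposite strand. Reads there cannot be given to either gene without strand, and the authors' counting left out reads on more than 1 gene. Pou2f1 itself was 6.59 ± 0.765 CPM in control and 7.84 ± 0.624 CPM in Smo-KO livers (SD, n = 4 each), with a positive log2 fold change of 0.25 (standard error 0.15, edgeR adjusted p = 0.485).

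The coreceptors divide T cells into those that read MHC class II (CD4) and class I (CD8). Cd8a was 11, 9.44, 9.54 and 9.50 CPM in control and 5.46, 4.47, 6.22 and 7.04 CPM in Smo-KO mice. The control livers were close together (coefficient of variation 7.66%), and no Smo-KO liver reached them. The log2 fold change was -0.77 (standard error 0.16), the smallest standard error among the Cd3 chains, coreceptors and Lck. Cd8b1, the other chain of the CD8 heterodimer, was 4.08, 4.30, 4.17 and 3.66 CPM in control and 3.40, 1.20, 1.95 and 2.24 CPM in Smo-KO mice (log2 fold change -0.87, standard error 0.26). Smo-KO mouse 1 was only just below control mouse 4. Cd4 was 2.04, 3.15, 2.98 and 4.55 CPM in control and 0.928, 0.873, 2.44 and 1.81 CPM in Smo-KO mice (log2 fold change -1.09, standard error 0.34). Here the groups overlapped, since Smo-KO mouse 3 was above control mouse 1. The ratio of Cd8a to Cd4 was 3.42 ± 1.40 in control and 4.36 ± 1.46 in Smo-KO livers (each a mean with its SD over 4 mice), and the means differed by less than the SD of either group. The counts are of whole liver, and some dendritic cells also carry Cd8a.

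Of the kinases, Lck, the Src family kinase at the start of the cascade, was 5.90, 7.34, 7.16 and 9.50 CPM in control and 2.58, 3.60, 6.22 and 4.37 CPM in Smo-KO mice (log2 fold change -0.85, standard error 0.24). Smo-KO mouse 3 was above control mouse 1, the one point of overlap. Zap70 was 24.6, 18.1, 21.6 and 23.2 CPM in control and 19.0, 17.3, 13.2 and 20.7 CPM in Smo-KO mice (log2 fold change -0.32, standard error 0.14). It kept 80.1% of the control mean, where the other 8 genes together kept 56.1%, and 2 of the 4 Smo-KO livers lay within the control range. NK cells use Zap70 as well. The ratio of Zap70 to Lck was 3.03 ± 0.808 in control and 4.76 ± 2.14 in Smo-KO livers (each a mean with its SD over 4 mice) and overlapped between the groups.

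Themis ran opposite to the receptor genes. It was 10.9, 11.7, 9.14 and 13.2 CPM in control mice (92 to 133 reads) and 15.7, 26.0, 25.2 and 20.5 CPM in Smo-KO mice, where 152 to 238 reads lay on the gene. The lowest Smo-KO liver, mouse 1, was above the highest control liver, mouse 4. The mean was 11.2 ± 1.68 CPM in control and 21.8 ± 4.78 CPM in Smo-KO livers (SD, n = 4 each). The log2 fold change was 0.96, with a standard error of 0.17. Set against the summed level of the other 9 genes, Themis was 0.155, 0.186, 0.136 and 0.163 of that sum in control mice and 0.376, 0.698, 0.539 and 0.385 in Smo-KO mice. The mean ratio in Smo-KO livers was 3.12 times that in control livers, and the groups were far apart. Smo-KO mouse 2, which had the lowest summed T cell level, had the highest Themis level.

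**Figure D2:**
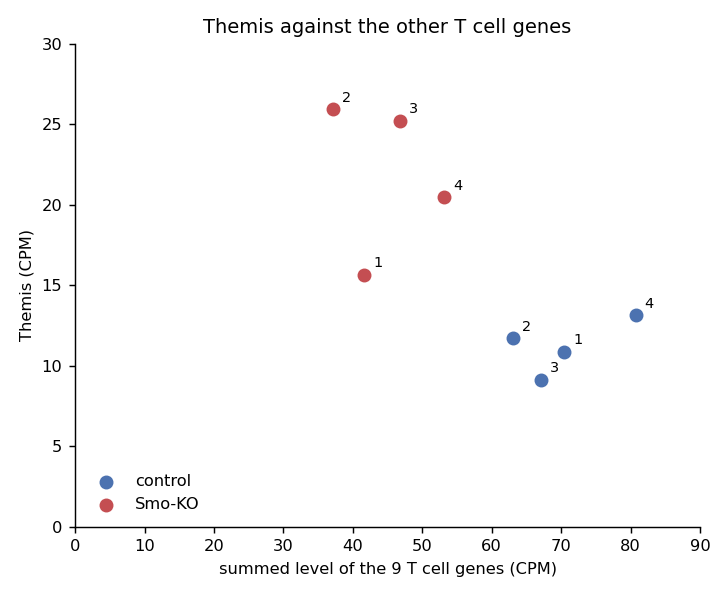
Themis (vertical axis, CPM) against the summed level of the other 9 T cell genes (horizontal axis, CPM), 1 point per liver with its mouse number. Control livers lie at sums of 63.0 to 80.7 CPM with Themis at 9.14 to 13.2 CPM, and Smo-KO livers at sums of 37.2 to 53.1 CPM with Themis at 15.7 to 26.0 CPM.

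The genes beside Themis were read for comparison. Ptprk, the nearest protein-coding gene on the left (71 kb away, a receptor tyrosine phosphatase), was 66.9 ± 3.57 CPM in control and 62.0 ± 3.08 CPM in Smo-KO livers (log2 fold change -0.11, standard error 0.08, edgeR adjusted p = 0.584). The nearest on the right, 2310057J18Rik (88.5 kb away), had at most 5 reads in any liver. A pseudogene on the opposite strand, 4930519F09Rik, shares 1.31% of the exon bases of Themis and was not among the counted symbols. Of the other Themis family genes, Themis2, which is known from B cells and macrophages, was 25.5 ± 4.32 CPM in control and 21.5 ± 3.42 CPM in Smo-KO livers (log2 fold change -0.24, standard error 0.14, adjusted p = 0.473), and Themis3 had 0 reads in all 8 livers. Thymocyte genes were near 0: Rag1, Ptcra and Arpp21 had at most 1 read in any liver and Rag2 had none. Dntt had at most 19 reads and overlapped between groups, and Cd1d1, which many liver cells express, made up 99.6% of the sum of that list.

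Levels of different genes were compared per kilobase of exon (the union of GENCODE M21 exons). In control livers Zap70 stood highest, at 7.32 ± 0.934 CPM per kilobase (SD, n = 4). Cd8b1 (2.73 ± 0.187), Cd8a (2.71 ± 0.208), Cd3g (2.64 ± 0.334), Lck (2.55 ± 0.510), Cd3d (2.20 ± 0.404) and Cd3e (2.01 ± 0.491) followed, each within 1 SD of its neighbor in that order. Themis (0.961 ± 0.144), Cd4 (0.789 ± 0.257) and Cd247 (0.568 ± 0.151) were lowest. The value of Cd247 may be too low, since 56.4% of the exon bases it is divided by are shared with Pou2f1. Reads on more than 1 gene were left out of the counts, so the place of Cd247 in this order is not certain. In Smo-KO livers Zap70 was still highest (5.86 ± 1.07) and Themis came second, at 1.87 ± 0.409, ahead of Cd3g (1.65 ± 0.577) by less than their spread. The level of Themis depends on the length used, since its annotated exons add up to 11.7 kb but its longest transcript to 5.08 kb. Its place among these genes was the same with either length, in both groups. Per kilobase of longest transcript Themis was at 2.21 ± 0.330 in control and 4.30 ± 0.940 in Smo-KO livers, against 3.22 ± 0.785 and 1.63 ± 0.629 for Cd3e.

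Variation between mice of 1 group was examined apart from the group difference, as the Pearson r of log2 CPM over the 8 livers after each group's mean was removed. The points share their libraries, so the values are descriptions. Over the 36 pairs of the 9 T cell genes the median r was 0.44, and 26 pairs were positive. Cd247, Cd4 and Lck went together most closely (0.96 for Cd247 with Cd4 and 0.92 for Cd4 with Lck), and Cd3d and Cd3g, the head-to-head pair, had an r of 0.85. Zap70 had an r of -0.12 with the sum of the other 8, and Cd8b1 of 0.08, against 0.78 for Cd3e. Themis had an r of 0.08 with the sum of the 9, of which Zap70 made up 31.2% in control and 39.8% in Smo-KO livers on average. With single genes its r was positive for Cd3d (0.71), Lck (0.68), Cd3g (0.53), Cd4 (0.40) and Cd247 (0.28). It was negative for Cd3e (-0.12), Cd8a (-0.19), Zap70 (-0.41) and Cd8b1 (-0.81). The r of Themis with the sum has no stable sign, as it was -0.15 without control mouse 4 and 0.54 without Smo-KO mouse 2.

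**Figure D3:**
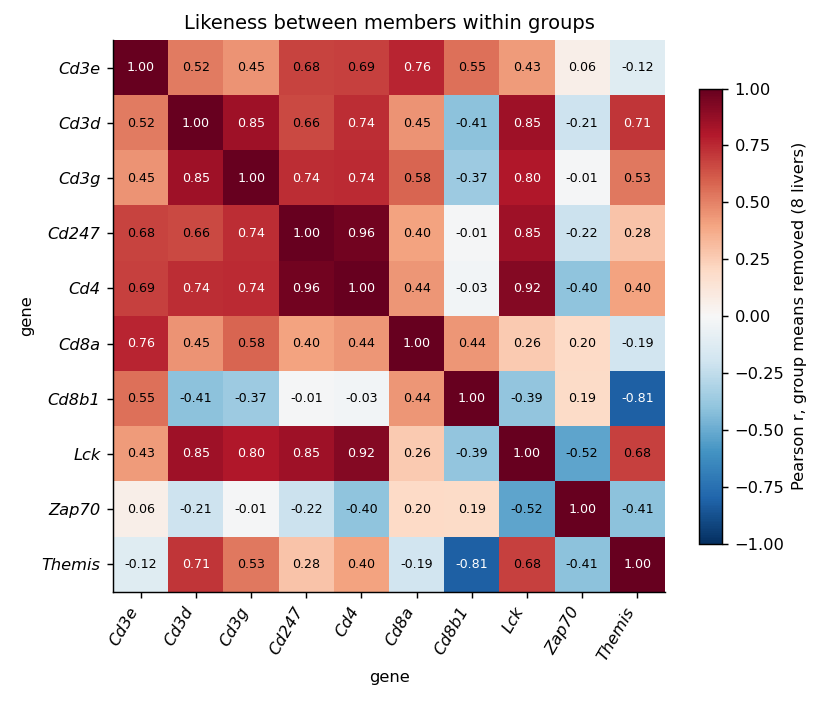
Pearson r between the 10 genes over 8 livers, from log2 CPM with each group's mean removed (color scale from -1 to 1, each r printed in its cell). Cd3d, Cd3g, Cd247, Cd4 and Lck form a block with r of 0.66 to 0.96, and Zap70 and Cd8b1 stand outside it.

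Genes outside the 10 whose pattern was most like them were ranked in the same way among genes with a mean of at least 1 CPM. For the sum of the 9 T cell genes the 5 highest were Snrpd3 (r = 0.98), Lax1 (0.97), BC147527 (0.96), Mrpl54 (0.95) and Gstm5 (0.94). Of these, Lax1, an adaptor of lymphocytes, was also lower on average in Smo-KO livers (3.38 ± 1.08 to 2.02 ± 0.764 CPM; log2 fold change -0.75, standard error 0.30, edgeR adjusted p = 0.303), while BC147527 had higher values in every Smo-KO liver (0.307 ± 0.131 to 2.61 ± 1.39 CPM; log2 fold change 3.02, standard error 0.48, edgeR adjusted p = 0.0957). The control values of BC147527, 0.210 to 0.495 CPM, lie around the level of 3 reads, so neither its fold change nor its r is exact. It reached the mean of 1 CPM only through its Smo-KO values. For Themis the 5 highest were Ces1g, a carboxylesterase (r = 0.98), Rarres2 (0.96), Lpgat1 (0.96), Fancl (0.96) and Nox4, a superoxide-producing oxidase (0.95). Their log2 fold changes ran from -0.10 (Fancl, standard error 0.15) to 0.32 (Nox4, standard error 0.13). None of these 5 had an edgeR adjusted p under 0.05, but neither had any of the 12977 genes tested. The ranking ran over 12930 genes and only 8 livers.

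Other genes of the pathway were taken from 4 lists: adaptors and enzymes, inhibitors, costimulators and other surface genes, and transcription factors, 80 genes in all, of which 65 had enough reads to be tested. After adjustment over all genes, edgeR called none of the 65 at 0.05 (lowest adjusted p 0.0957), and 0 of all 12977 genes (0%). At an unadjusted p under 0.05, 24 of 65 (36.9%) were lower in Smo-KO livers, where 7.15% of all genes were, and 1 was higher, where 6.7% were. All Smo-KO values lay below all control values in 16 of 65 (24.6%, against 4.34%), and above them in 0. The median log2 fold change was -0.24. DESeq2, with its Wald test, gave 53 of the 65 an adjusted p and called 3 of them (1.26% of all genes were called). Sh2d2a and Il2rb were among them, both lower, with adjusted p of 0.0122 and 0.000362.

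The surface genes had the most negative median of the 4 lists. Of 16 tested, 14 had lower means in Smo-KO livers and 12 had an unadjusted p under 0.05, with a median log2 fold change of -0.64. Il2rb, the receptor chain through which IL-2 and IL-15 act, averaged 10.5 ± 2.99 CPM in control and 4.43 ± 1.04 CPM in Smo-KO livers (log2 fold change -1.25, standard error 0.23, edgeR adjusted p = 0.0957). Il2rg, the common gamma chain, had a log2 fold change of -0.57 (standard error 0.14), and Cxcr3, the chemokine receptor of activated T cells, one of -0.97 (standard error 0.26). The summed level of this list was 223 ± 18.2 CPM in control and 171 ± 12.9 CPM in Smo-KO livers (SD, n = 4 each), without overlap, and Itgal, which other leukocytes also express, made up 31.4% of it.

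The adaptors and enzymes were mixed. Their 18 tested genes had a median log2 fold change of -0.19, and 4 had an unadjusted p under 0.05, all 4 lower. Sh2d2a, an adaptor that binds Lck, averaged 4.83 ± 0.772 CPM in control and 2.24 ± 0.362 CPM in Smo-KO livers (log2 fold change -1.10, standard error 0.21, edgeR adjusted p = 0.1). Prkcq, the protein kinase C of the T cell synapse, had a log2 fold change of -0.91 (standard error 0.28), and Nfatc1, which is not limited to T cells, one of -0.28 (standard error 0.10). The summed level of this list, led by the widely expressed Nfatc3, was 319 ± 18.8 and 303 ± 18.4 CPM and overlapped between groups. T cell receptor inhibitors had a median of -0.08 over 18 genes, again with 4 lower at an unadjusted p under 0.05. Among them were Ctla4 (log2 fold change -1.19, standard error 0.29), Pdcd1, which encodes PD-1 (-0.94, standard error 0.28), and Cd6 (-0.84, standard error 0.27), and their adjusted p ran from 0.143 to 0.220 in edgeR's test. Their sum, mostly of broadly expressed genes such as Csk, was 536 ± 19.1 and 523 ± 18.4 CPM.

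Of 13 transcription factors tested, 4 were lower at an unadjusted p under 0.05, with a median of -0.20. Ikzf3, which encodes Aiolos, averaged 3.76 ± 0.739 CPM in control and 1.81 ± 0.566 CPM in Smo-KO livers (log2 fold change -1.06, standard error 0.25, edgeR adjusted p = 0.140), and Eomes, a factor of cytotoxic lymphocytes, had a log2 fold change of -0.83 (standard error 0.26). The list's sum, led by Zbtb7b, was 264 ± 20.6 and 277 ± 14.0 CPM. Several defining T cell genes were too low to be tested. Foxp3 had at most 18 reads in any liver, Tbx21 at most 11 and Cd40lg at most 3. None of the 10 symbols listed for the constant regions of the receptor's variable chains was among the counted symbols, so those chains were not analysed here.

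**Figure D4:**
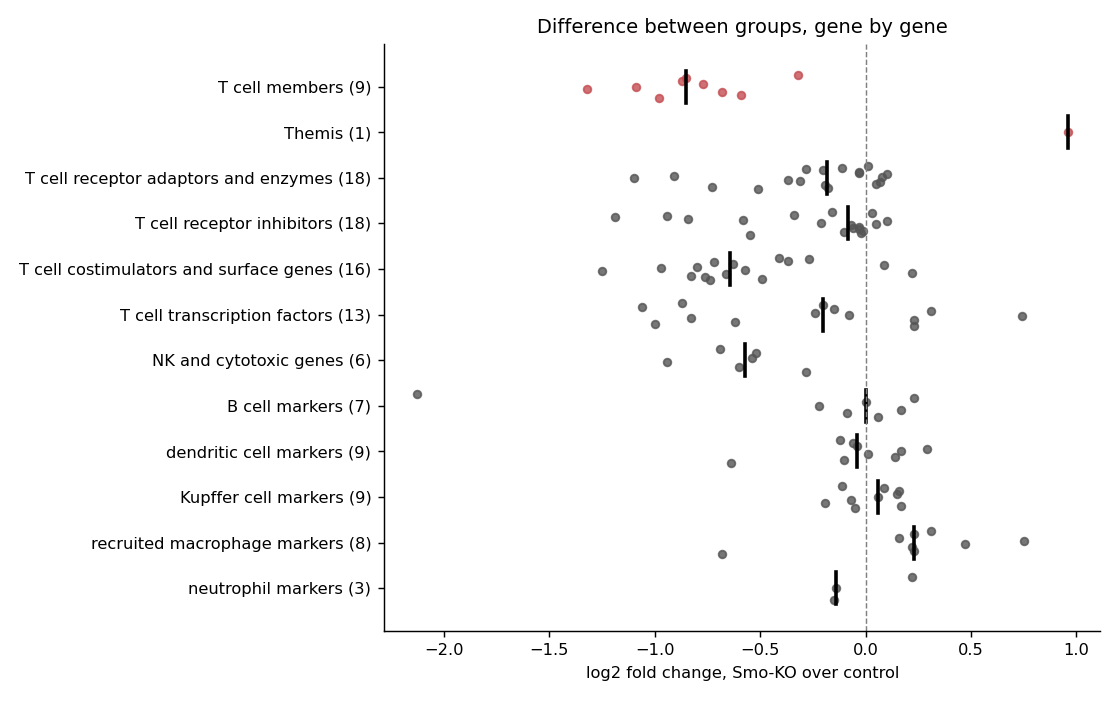
Log2 fold change of Smo-KO over control (horizontal axis), 1 point per gene tested, for the 9 T cell genes, Themis and the other lists, with the number of genes in parentheses; thick bars are medians and the dashed line is no difference. The T cell genes have a median of -0.85, the surface genes of -0.64 and the Kupffer cell markers of 0.06, and Themis stands at 0.96. The 9 T cell genes and Themis were chosen by this contrast.

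Markers of other cells that a liver holds were summed in each mouse. The NK and cytotoxic genes, some of which T cells share, summed to 68.4, 75.7, 63.5 and 82.7 CPM in control mice and 38.6, 34.9, 64.4 and 55.0 CPM in Smo-KO mice. The mean was 66.4% of the control mean, close to the 63.6% of the T cell genes, but Smo-KO mouse 3 lay within the control range. All 6 tested genes of the 15 listed had lower means (median log2 fold change -0.57), 3 at an unadjusted p under 0.05. Nkg7, a granule membrane protein, averaged 14.5 ± 3.09 and 7.59 ± 2.44 CPM (log2 fold change -0.94, standard error 0.22, edgeR adjusted p = 0.140) and was called by DESeq2 (adjusted p = 0.0121). Ccl5 made up 56.5% of the sum, the defining NK genes Ncr1 and Klrb1c had at most 7 and 3 reads, and Klra8 had 0 in all livers. The part of NK cells in the lower Zap70 and Il2rb levels was not tested.

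Markers of most myeloid cells had similar sums in both groups. The Kupffer cell markers summed to 2043 ± 331 CPM in control and 2103 ± 340 CPM in Smo-KO livers (SD, n = 4 each). Of these, 0 of 9 had an unadjusted p under 0.05, and Cd5l was most abundant. The dendritic cell markers summed to 805 ± 18.8 and 788 ± 41.3 CPM (0 of 9, median log2 fold change -0.04). Bst2 made up 86.4% of that sum, which therefore says little of the other genes of the list. The neutrophil markers summed to 23.8 ± 6.23 and 24.6 ± 2.71 CPM (0 of 3 tested, Csf3r most abundant, Ly6g at 0). The markers of recruited macrophages were the exception, with a sum of 780 ± 60.7 CPM in control and 951 ± 93.5 CPM in Smo-KO livers, without overlap. Of these 8 genes, 7 had higher means, 4 of them at an unadjusted p under 0.05. Ly6c2, the remaining gene, had a lower mean (log2 fold change -0.68, standard error 0.35, edgeR adjusted p = 0.405), so the list did not move as 1. Trem2, a receptor of lipid-associated macrophages, averaged 33.6 ± 2.94 and 56.5 ± 9.70 CPM (log2 fold change 0.75, standard error 0.13, edgeR adjusted p = 0.0957) and was called by DESeq2 with an adjusted p of 0.000156, and Lyz2 made up 53.4% of the sum. Whether these cells have a part in the Themis level was not tested.

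The B cell markers summed to 33.2 ± 10.99 and 24.4 ± 3.89 CPM, with overlap and a median log2 fold change of 0.00 over 7 genes, and Cd22 was the most abundant. Jchain, an antibody-joining protein of plasma cells, was 3.29, 4.30, 24.6 and 14.1 CPM in control and 3.40, 1.64, 3.05 and 2.56 CPM in Smo-KO mice. Control mice 3 and 4 were high, while control mouse 1 was below Smo-KO mouse 1, so the groups overlapped and the higher control mean rests on those 2 mice. Hepatocyte markers kept 96.9% of the control sum (1 of 10 lower at an unadjusted p under 0.05, Cps1; Alb most abundant), sinusoidal endothelial markers 87.3% (1 of 6 lower, Pecam1; Clec4g most abundant), stellate cell markers 96.4% (1 of 6 lower, Col1a1; Dcn most abundant) and cholangiocyte markers 104% (0 of 4; Sox9 most abundant), all with overlap between the groups.

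**Figure D5:**
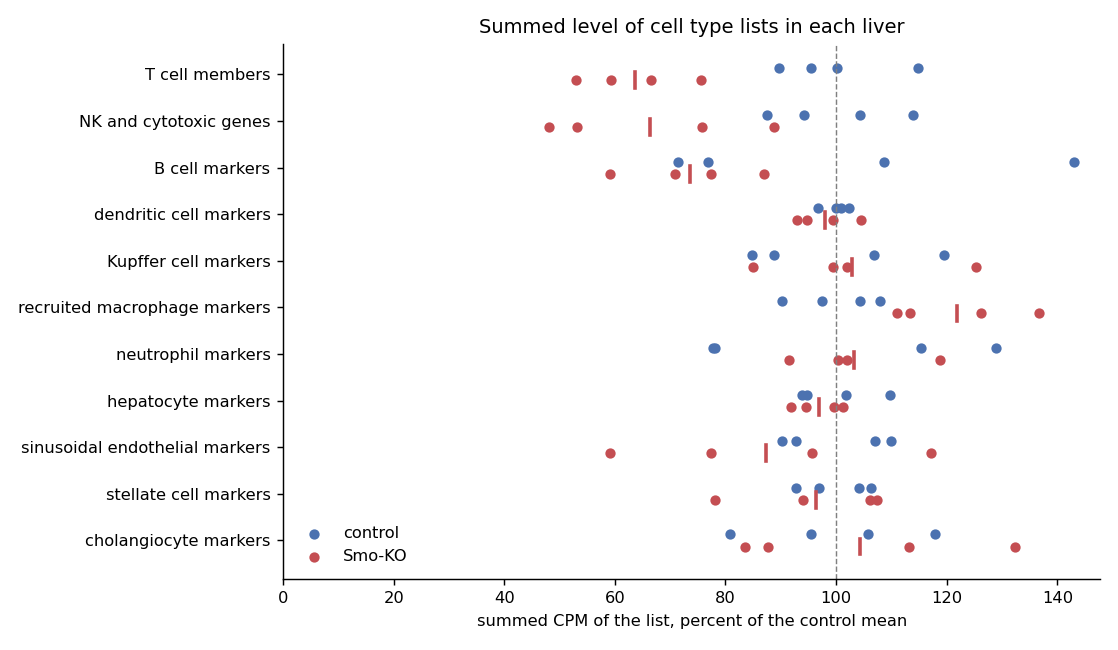
Summed CPM of each marker list as percent of the control mean (horizontal axis, from 0), 1 point per liver, control in blue and Smo-KO in red; red bars are Smo-KO means and the dashed line is the control mean. T cell genes (63.6%) and NK and cytotoxic genes (66.4%) have the lowest Smo-KO means, recruited macrophage markers the highest, and hepatocyte markers lie at 96.9%. The T cell genes were chosen by this contrast, so nothing is read from their place.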

How the data were processed

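RNA of whole liver from 4 control and 4 Smo-KO mice was measured, 1 library each. The authors deposited raw read counts per gene symbol without normalization. The submitters' processing notes name fastp, STAR 2.7.5, featureCounts 2.0.1 and GRCm38. The entries that close each file have the form of htseq-count, so the counting tool is not certain. The annotation and the strand setting are not given in the sources used here, and the kit named in the labels does not mark strand. Reads on no feature (control 8.33% ± 0.743, Smo-KO 9.23% ± 0.330, SD of 4 livers, with overlap) and on more than 1 gene (2.55% ± 0.0719 in control and 2.51% ± 0.0456 in Smo-KO livers) entered neither library sizes nor tests.

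Counts were filtered with filterByExpr, which all 10 members passed, scaled by TMM and fitted with genotype alone in edgeR 4.0.16 (R 4.3.3; quasi-likelihood F test, Benjamini-Hochberg over 12977 genes). DESeq2 1.42.0 was an alternative. CPM use the scaled library size. Log2 CPM used a prior count of 2. Standard errors are those implied by the F statistic. The labels give 1 sample per numbered mouse. Chi-square per degree of freedom between libraries of 1 group was at least 8.17, so none repeats another. The fit was tested on simulated data. Depth limits counting error only, since molecular identifiers are not given.

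The members and the lists were chosen with earlier results of these data known. Named were the members, Smo, the neighbors of Themis, the 5 genes most like each pattern and, per list, the 3 genes with the smallest p (examples of these are given) with genes near 0. Pou2f1, Cd1d1, Ly6c2 and the most abundant gene of each list were named after their values were seen. The values of 1 list gene are not reported here. Figures were drawn with matplotlib 3.10.9. Alternatives were other size factors, DESeq2, 2 other filters, a block for the replicate number, leaving out single mice, and other sums, correlations and lengths.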

Additional observations from a re-analysis of the deposited data

Results flagged for a closer look

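In 7 of 190 groups of 4 livers, 1 liver stood apart from the rest; by chance about 9.5 such groups (1 in 20) would be seen. Among the members, Cd8a was 11 CPM in control mouse 1, against 9.44 to 9.54 CPM in the other controls. The sum of the T cell genes without Zap70 was 57.5 CPM in control mouse 4, against 44.9 to 45.8 CPM, and Cxcr3 was 3.46 CPM in the same mouse, against 2.09 to 2.31 CPM. Both lie away from the Smo-KO livers. The summed T cell surface genes were 195.5 CPM in control mouse 1, against 229 to 234 CPM, which is nearer to the Smo-KO livers. Pax5, a B cell factor, was 1.93 CPM in control mouse 1, against 0.944 to 0.994 CPM, and Sox9, a cholangiocyte factor, was 13.7 CPM in Smo-KO mouse 1, against 8.94 to 9.76 CPM. Smo-KO mouse 3 had 8203299 reads on genes, while its group otherwise had 9367795 to 9543675, so its low counts carry somewhat more counting error.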

How the results depend on the processing

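Under 128 combinations of a member and an alternative, no fold change of the 10 genes changed sign or moved by more than the spread between mice. With each mouse left out in turn, Themis stayed between 0.86 and 1.09, Cd247 between -1.46 and -1.14, Cd8a between -0.87 and -0.66 and Zap70 between -0.40 and -0.20 (log2). Cd247 and Cd4 have fewer than 10 reads in some livers and have no value when 10 are required in every liver. The summed T cell level stayed between a log2 ratio of -0.83 (without Zap70) and -0.58, and the log2 ratio of Themis to the sum, relative to control, between 1.43 and 1.81. The number of genes called across the transcriptome was 0 in edgeR, 163 in DESeq2, 61 with no filter and 8 with the replicate block, and ran from 0 to 78 with each mouse left out (78 without Smo-KO mouse 1, 5 without control mouse 1, 4 without Smo-KO mouse 3). At an unadjusted p under 0.05 edgeR gave 1797 genes. Of the 65 T cell list genes, 3 were called by DESeq2, 2 with no filter (Sh2d2a and Il2rb, of 80 tested) and from 0 to 2 with each mouse left out (2 without Smo-KO mouse 1, Itgal among them). The count of list genes lower at an unadjusted p under 0.05 ran from 20 to 30. The number tested also changed: it was 30 of 80 with no filter and 20 of 58 with 10 counts required in every liver. With each mouse left out the count ran from 20 to 26, of 65 or 66 tested. The median r among the T cell genes was 0.79 with group means kept and ran from 0.33 (without Smo-KO mouse 2) to 0.64 (without Smo-KO mouse 1). The r of Themis with their sum was -0.78 with group means kept, -0.10 as Spearman's rho, and ran from -0.15 to 0.54 with mice left out (-0.15 without control mouse 4, -0.13 without Smo-KO mouse 1, 0.20 without Smo-KO mouse 4). The cause of these changes was not tested. Mice with the same number correlated at 0.06 to 0.19 in their deviations from the group means, and other pairs at -0.205 to 0.157. Control mice 2, 3 and 4 each correlated best with the Smo-KO mouse of the same number (0.187, 0.061 and 0.113). Control mouse 1 correlated best with Smo-KO mouse 4 (0.157, against 0.104 for its own number), and 1 of the 4 pairs was under 0.1. The mice were treated as unpaired, although all 4 same-number values were positive, so the numbers may mark something shared. The fit with the replicate block is the alternative that allows for this. The depth limits what can be said of genes near 3 reads.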
